A study of Mus musculus with 8 samples.

Results

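The genes described here are 43 components of the primary cilium, taken by symbol from a fixed list out of the 25239 gene symbols in a count table of mouse kidney RNA-seq. Most of the 43 are known for human ciliopathies, inherited diseases that often include cystic or fibrotic kidneys. They comprise 11 subunits of the intraflagellar transport complex B (IFT-B), 6 subunits of complex A (IFT-A), 3 motor subunits, 6 subunits of the BBSome, 2 chaperonin-like BBS proteins, 9 proteins of the transition zone, 3 proteins of the basal body, ciliary membrane or inversin compartment (Ofd1, Arl13b and Invs), and the 3 polycystic kidney disease proteins Pkd1, Pkd2 and Pkhd1. All 43 symbols were found in the table, and all 43 had enough counts to be tested.

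The series asks what the transcription factor FoxO1 does in macrophages during acute kidney injury after ischemia and reperfusion (I/R). It has 4 knockout libraries (knockout 1 to 4), from mice with floxed FoxO1 alleles and the Cre transgene Lyz2-CreERT2, active after tamoxifen (Lyz2-CreERT2 FoxO1flox/flox), and 4 control libraries (control 1 to 4) with the genotype label WT. The protocol text is the same for all 8 libraries. It describes mice of 8 to 10 weeks, tamoxifen at 75 mg/kg on 5 days and pentobarbital. The surgery described is removal of the right kidney, clamping of the left renal vessels for 35 minutes and a 5-minute check of reflow. Lyz2 is active in macrophages, monocytes and neutrophils, so the allele concerns myeloid cells, whereas the RNA came from whole kidney digested with collagenase. The sources used here do not say whether controls carried Cre or when kidneys were collected, and no uninjured kidney was analysed here. No label says that libraries of a group came from separate mice, so p-values reflect only how libraries of a group spread, and this may be technical in part. In bulk tissue, fewer cells of a type and less RNA per cell cannot be told apart.

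The primary cilium is a single sensory projection of the cell surface, built on a centriole and carried in the kidney by tubule cells, where it extends into the lumen. IFT-B with kinesin-2 moves cargo towards the tip, IFT-A with dynein-2 moves it back, the BBSome carries membrane proteins out, and the transition zone at the base gates what enters. The polycystins and fibrocystin sit in the ciliary membrane of tubule cells, and their loss gives polycystic kidney disease. RFX transcription factors drive many cilium genes through a near-palindromic promoter element, the X-box, and HNF1 factors drive several cystic kidney genes.

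Promoter windows from RefSeq on the assembly GRCm38.p6 (250 bases before to 50 bases after each gene's start) were given for 40 of the 43 members, and not for Ift80, Ift81 or Ift122. The X-box was searched on both strands as GTTNCC, 1 to 3 further bases and GGNAAC. It was found for 6 of 40 members (15%), against 4 of 60 other cilium genes with a window (6.67%) and 244 of 27025 genes in all (0.903%). The 6 matches are shown because the X-box was more frequent among these genes than among all genes, although most member windows lacked it. Each is printed on the gene's strand, with the match in capitals and up to 8 bases on each side, and was picked for display after its fold change was known.
Ift57, chr16:49699226-49699254 (+): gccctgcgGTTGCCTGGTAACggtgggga
Bbs7, chr3:36613489-36613518 (-): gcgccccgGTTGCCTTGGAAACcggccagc
Mks1, chr11:87853183-87853212 (+): gcgtctccGTTGCCAGGGGAACgaggcacc
Tctn1, chr5:122264411-122264432 (-): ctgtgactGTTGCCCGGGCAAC
Tctn3, chr19:40612351-40612379 (-): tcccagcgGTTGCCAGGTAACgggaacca
Ahi1, chr10:20952560-20952589 (+): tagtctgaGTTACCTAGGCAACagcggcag

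The matches of Ift57, Bbs7, Mks1 and Tctn3 lay upstream of the start, and those of Tctn1 and Ahi1 just after it. A looser form, GTNNCC with 1 to 3 bases and GGNNAC, which includes every match of the first form, was found for 13 of 40 members (32.5%), 11 of 60 other cilium genes (18.3%) and 4.00% of all genes. A site for HNF1 with at most 2 mismatches was found for 1 member, Pkhd1 (2.5% of members, against 1.58% of all genes). It is shown as the single such match among the cystic kidney proteins.
Pkhd1, chr1:20618116-20618144 (-): tggctcgcGTTAATTATTAAActtgccct

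The FOXO motif GTAAACA was found in 0 of the 40 member windows, against 4.05% of all genes, which says only that these letters are not in these windows. A match is a description of letters and not a site shown to be bound. The coordinates are those of GRCm38.p6, whereas the submitters' processing notes name mm39 for the counts.

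Library totals ran from 29044405 to 35530421 counts, and a member had between 43 and 7032 counts in a library. Levels are given as CPM, counts scaled to a common library size with trimmed mean of M values (TMM) factors. Where genes of different length are set side by side, TPM is given. These are counts divided by gene length and scaled to a common total per library, without TMM factors. Pearson correlations of log2 CPM over genes were 0.969 to 0.985 between knockouts, 0.954 to 0.981 between controls and 0.912 to 0.966 across the groups. The targeted gene Foxo1 had 41.4, 41.0, 42.9 and 39.3 CPM in knockouts and 34.5, 33.4, 33.0 and 33.9 CPM in controls (edgeR log2 fold change 0.29, adjusted p = 0.0647). The groups did not overlap, and DESeq2 (adjusted p = 0.00611) and voom (adjusted p = 0.0453) called Foxo1 higher in knockouts. It was thus not lower in the libraries labelled knockout, and the whole-kidney count does not check a deletion in myeloid cells. Lyz2 had 13 counts in knockout 3 and 81 in control 1, against 844 to 1610 in the other 6 libraries.

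Few single cilium genes passed the test between knockout and control kidneys. Ift122 and Ift172 of the transport trains and the polycystin-2 gene Pkd2 rose, by 1.45 to 1.62-fold. Ift43, a small IFT-A subunit, fell. The other 39 members did not pass the threshold. The test was edgeR's quasi-likelihood test with Benjamini-Hochberg adjustment over the 15000 genes tested, at an adjusted p under 0.05. It called 4 of 43 members (9.30%), against 1909 of 15000 genes (12.7%). Of all genes 6.45% were called higher and 6.28% lower, beside 3 and 1 of the 43 members. A share near or under the background is not a result about cilium genes.

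At an unadjusted p under 0.05 there were 8 higher and 1 lower of the 43 members, against 14.5% higher and 14.6% lower of all genes. DESeq2 called 4 higher and 1 lower, against 10.7% and 10% of all genes, and limma's voom with sample quality weights called 7 higher and 1 lower, against 9.4% and 9.65%. The summed CPM of the 43 members was 894, 1009.8, 1050.5 and 1045 in knockouts, against 869, 779.6, 878 and 825 in controls. Every knockout sum lay above every control sum, with knockout 1 nearest to the controls. Pkd2 and Pkhd1 made up a large part of it, and the other 41 members summed to 654, 689, 689 and 696 CPM in knockouts, against 637, 601, 636 and 604 CPM in controls, also without overlap. The TPM scale gives short genes more weight and uses no TMM factors. On that scale the sums overlapped, at 523 to 642 in knockouts and 473 to 607 in controls. These sums are a description with no test. CPM values of the groups did not overlap for 7 members (16.3%), namely Ift52, Ift88, Ift172, Ift43, Ift122, Tctn1 and Pkd2, against 21.7% of all genes.

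**Figure D1:**
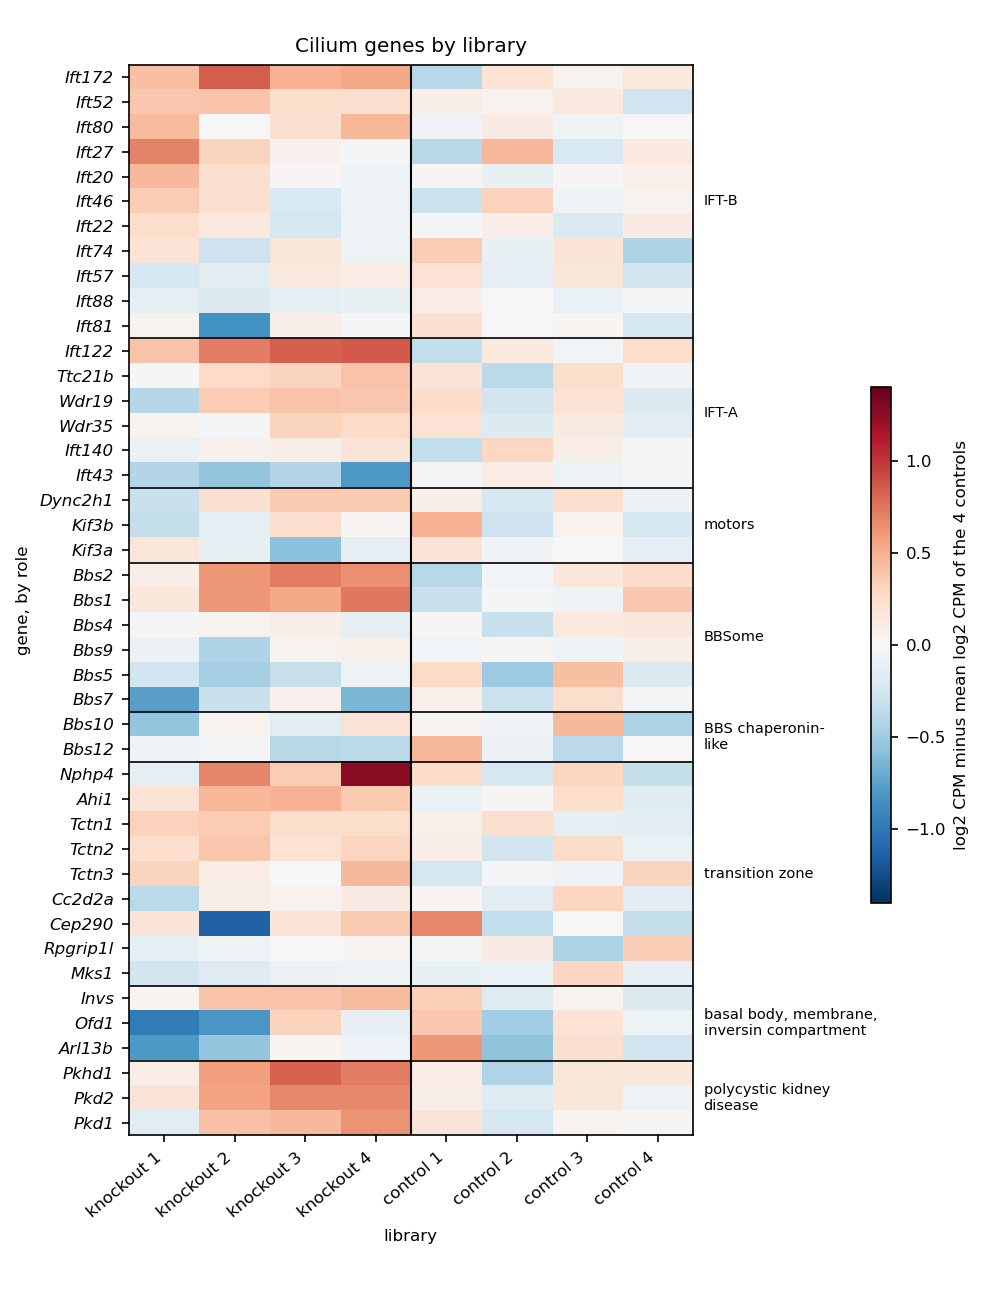
Each row is a cilium gene, grouped by role, and each column a library, with knockouts on the left and controls on the right. Colour gives log2 CPM minus the mean log2 CPM of the 4 controls, so that positive values are above the controls. Within most rows the columns of a group differ among themselves about as much as the groups do. Ift52, Ift122, Ift172, Tctn1 and Pkd2 are higher in each knockout than in each control.

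Fold changes of the 43 members ran from -0.53 to 0.70 on the log2 scale, with a median of 0.07, against a median of -0.01 over all genes. The sign was positive for 24 members and negative for 19. The median size of a change regardless of sign was 0.23 for members and 0.28 for all genes. The 95% interval of the fold change lay within a 2-fold change in either direction for 39 members (90.7%), against 65.6% of all genes. For those 39 members a change of 2-fold or more lies outside the interval. The exceptions were Ift122 (upper limit 1.04), Nphp4 (upper limit 1.33), Ofd1 (lower limit -1.03) and Arl13b (lower limit -1.03). A narrower bound of 1.5-fold in either direction held the intervals of 16 members.

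**Figure D2:**
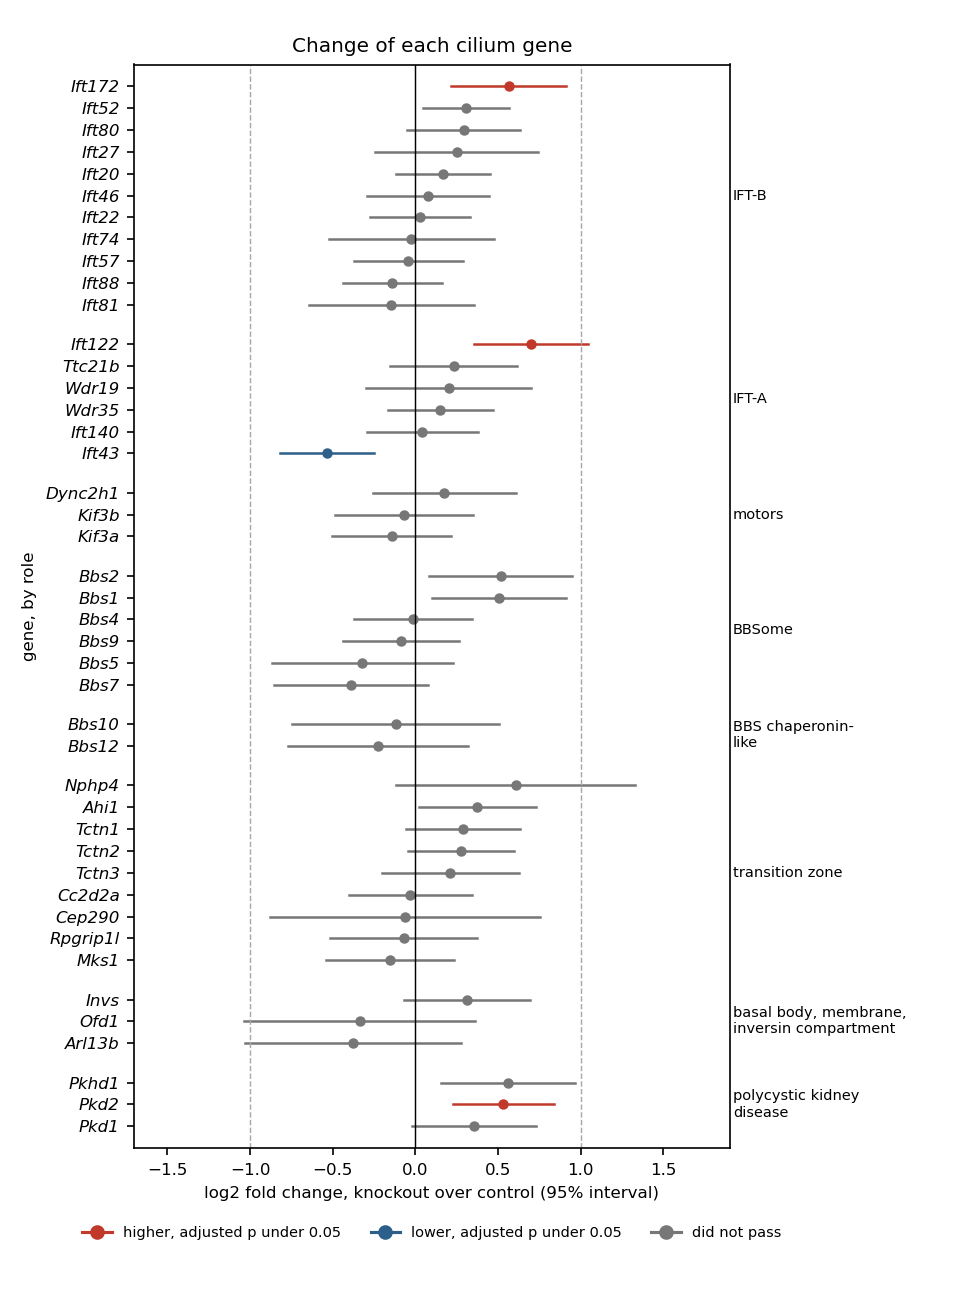
The x axis gives the log2 fold change of knockout over control with its 95% interval for each of the 43 cilium genes, listed down the page by role. Coloured points passed the threshold and grey points did not, and all 43 point estimates lie between -0.53 and 0.70.

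Among IFT-B subunits, which link kinesin-2 to its cargo, 1 of 11 rose, 0 fell and 10 did not pass, and the median log2 fold change was 0.07. Ift172, a large subunit at the periphery of the complex, had 29.3, 39.5, 30.8 and 31.8 CPM in knockouts, against 16.8, 25.1, 22.7 and 24.4 CPM in controls. Every knockout lay above every control, with knockout 2 highest and control 1 lowest. The log2 fold change was 0.56 ± 0.16 (SE, n = 4 against 4 libraries), with an adjusted p of 0.0409 from edgeR. Leaving out any 1 of control 1, control 3, control 4, knockout 2, knockout 3 or knockout 4 ended the call, at adjusted p-values of 0.0587 to 0.113. It also ended with length and GC trends removed (log2 fold change 0.48, adjusted p = 0.0598).

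Ift88, the subunit whose loss gives the classical cystic kidney mouse, did not pass the threshold. It had 9.68, 9.27, 9.68 and 9.90 CPM in knockouts and 11.4, 10.6, 9.97 and 10.5 CPM in controls. The knockouts lay just below the controls without overlap, at a log2 fold change of -0.14 (95% interval -0.44 to 0.16, adjusted p = 0.531 by edgeR). Ift52, a core subunit, had 49.4, 50.1, 45.0 and 44.8 CPM in knockouts, against 40.4, 39.3, 41.8 and 31.4 CPM in controls. These groups did not overlap either, and control 4 stood lowest (log2 fold change 0.31 ± 0.12, adjusted p = 0.111 by edgeR).

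The remaining IFT-B genes lay between -0.15 (Ift81) and 0.29 (Ift80) on the log2 scale. Ift74, which with Ift81 binds tubulin, was nearest to no difference, with 5.50 ± 0.825 CPM in knockouts and 5.59 ± 1.29 CPM in controls (SD, n = 4 each). The Rab-like GTPases of the complex had log2 fold changes of 0.03 (Ift22) and 0.25 (Ift27). Ift20, which also works at the Golgi, stood at 0.17, Ift46 at 0.07 and Ift57 at -0.04. The 95% intervals of all 11 IFT-B genes lay within a 2-fold change.

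IFT-A held a member called in each direction. Of its 6 subunits 1 rose, 1 fell and 4 did not pass, with a median log2 fold change of 0.18. Ift122, part of the IFT-A core, had 31.9, 39.6, 43.1 and 43.7 CPM in knockouts, against 19.1, 26.6, 23.4 and 28.6 CPM in controls. All 4 knockouts were above all 4 controls, and the lowest knockout was knockout 1. The log2 fold change of 0.70 ± 0.15 (SE) was the highest among the members and corresponds to 1.62-fold (adjusted p = 0.0184 by edgeR). The adjusted p was 0.0533 to 0.0618 without control 3, knockout 3 or knockout 4, which ended the call.

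Ift43, a short peripheral subunit, ran the other way. It had 18.1, 16.3, 18.1 and 13.8 CPM in knockouts, against 23.6, 25.8, 22.9 and 23.7 CPM in controls. The groups did not overlap, and the controls lay close together. The log2 fold change was -0.53 ± 0.13 (SE), or 1.45-fold lower, with an adjusted p of 0.0237 from edgeR. Leaving out control 3, knockout 2 or knockout 4 ended this call, at adjusted p-values of 0.0505 to 0.0701.

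Per length, the TPM of Ift122 divided by that of Ift43 was 0.351, 0.482, 0.474 and 0.632 in knockouts and 0.161, 0.205, 0.204 and 0.240 in controls. Every knockout ratio exceeded every control ratio, which follows from the non-overlap of both genes in CPM. The pair was chosen because it was called in opposite directions, so this is a description with no test. The deposited length is 4067 bases for Ift122 and 809 bases for Ift43.

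The other 4 IFT-A genes did not pass the threshold. Ift140, a core subunit, had 18.1 ± 1.41 CPM in knockouts and 17.6 ± 3.12 CPM in controls (SD, n = 4 each), and its log2 fold change was 0.04. Wdr19, also of the core, stood at 0.20, Wdr35 at 0.15 and Ttc21b at 0.23. For Wdr19 and for Ttc21b 3 of the 4 knockouts lay above all controls, and knockout 1 was the lowest knockout. Ttc21b, which with Wdr35 lies at the periphery of IFT-A, had its lowest value in control 2 (8.67 CPM) and its highest in knockout 4 (14.8 CPM), and its groups overlapped.

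For the motors, edgeR called 0 of 3 genes, with 0 at an unadjusted p under 0.05 and 0 by DESeq2 or voom. Dync2h1, the heavy chain of dynein-2, had 7.34, 10.6, 11.8 and 11.8 CPM in knockouts and 9.70, 7.70, 10.8 and 8.65 CPM in controls. Knockout 1 was the lowest of all 8 libraries, and the groups overlapped (log2 fold change 0.17, 95% interval -0.26 to 0.61, adjusted p = 0.598 by edgeR). The kinesin-2 subunit Kif3b had 41.3 ± 6.85 CPM in knockouts and 43.3 ± 11.3 CPM in controls (SD, n = 4 each), with control 1 highest. Its partner Kif3a had a log2 fold change of -0.14.

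For the 6 BBSome subunits, edgeR called 0, with 2 higher and 0 lower at an unadjusted p under 0.05, 0 by DESeq2 and 1 higher (Bbs2) by voom. Their median log2 fold change was -0.05, with values on both sides. Bbs1, mutated in a common form of Bardet-Biedl syndrome, had 14.8, 20.1, 19.2 and 22.1 CPM in knockouts, against 10.7, 13.1, 12.7 and 17.3 CPM in controls. The groups overlapped through knockout 1 and control 4, and 3 of 4 knockouts lay above all controls (log2 fold change 0.50 ± 0.18, adjusted p = 0.0966 by edgeR).

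Bbs2 resembled Bbs1, at 14.2 ± 2.56 CPM in knockouts and 9.95 ± 1.86 CPM in controls (SD, n = 4 each) and an adjusted p of 0.109 from edgeR. Bbs7, which joins Bbs2 in the core of the BBSome, had a log2 fold change of -0.39 ± 0.21 (SE), with 9.47 ± 2.51 CPM in knockouts and 12.4 ± 1.91 CPM in controls (SD). Bbs4 differed least, at 9.39 ± 0.656 CPM in knockouts and 9.48 ± 1.32 CPM in controls (SD, n = 4 each). Bbs5 stood at -0.32 and Bbs9 at -0.09 on the log2 scale. The chaperonin-like Bbs12 and Bbs10, needed to assemble the BBSome, had log2 fold changes of -0.23 and -0.12, with 0 of these 2 called by edgeR, DESeq2 or voom and 0 at an unadjusted p under 0.05.

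In the transition zone, edgeR called 0 of 9 genes, with 1 higher and 0 lower at an unadjusted p under 0.05 and 0 by DESeq2 or voom. The median log2 fold change was 0.21. The gene with the smallest p was Ahi1, a Joubert syndrome gene, with 9.39, 11.4, 11.6 and 10.7 CPM in knockouts, against 7.73, 8.32, 9.77 and 7.35 CPM in controls. The groups overlapped only through knockout 1 and control 3 (log2 fold change 0.37 ± 0.16, adjusted p = 0.149 by edgeR). The 3 tectonics, Tctn1 to Tctn3, which form a complex at the base of the cilium, had log2 fold changes of 0.29, 0.27 and 0.21.

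Cep290, a large linker protein of the transition zone and a frequent ciliopathy gene, was among the lowest members, with 3.09, 1.25, 3.10 and 3.53 CPM in knockouts and 4.36, 2.16, 2.75 and 2.17 CPM in controls. Knockout 2 was lowest and control 1 highest, and the groups overlapped. The log2 fold change of -0.06 had a 95% interval of -0.88 to 0.75, the widest of the 43 members and still within a 2-fold change. Cc2d2a had 13.2 ± 1.96 CPM in knockouts and 13.4 ± 2.08 CPM in controls (SD, n = 4 each). Nphp4, a nephrocystin mutated in nephronophthisis, had 2.2, 3.85, 3.07 and 5.78 CPM in knockouts and 2.89, 2.03, 2.95 and 1.91 CPM in controls, with an interval of -0.12 to 1.33 around 0.61. Knockout 4 was its highest library, and the interval includes a 2-fold rise. Mks1 and Rpgrip1l stood at -0.15 and -0.07.

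Ofd1 of the basal body, Arl13b, a small GTPase of the ciliary membrane, and Invs of the inversin compartment had the highest median SE of the role groups, 0.29 on the log2 scale. Of these 3 genes edgeR called 0, with 0 at an unadjusted p under 0.05, 0 by DESeq2 and 1 higher (Invs) by voom. Arl13b had 3.71, 4.46, 6.63 and 6.19 CPM in knockouts and 9.89, 4.41, 7.58 and 5.38 CPM in controls. Its libraries varied over a wide range within both groups, with control 1 highest. Ofd1 likewise had 5.30 ± 2.24 CPM in knockouts and 6.70 ± 1.65 CPM in controls (SD, n = 4 each). Invs had 10.5, 13.5, 13.5 and 13.96 CPM in knockouts, against 12.9, 9.04, 10.6 and 8.94 CPM in controls, with 3 of 4 knockouts above all controls and knockout 1 below control 1.

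The polycystic kidney disease genes had the highest median log2 fold change of the role groups, 0.53 over 3 genes. Pkd2, which encodes the cation channel polycystin-2, rose. It had 141, 184, 198 and 198 CPM in knockouts, against 132, 109, 139 and 118 CPM in controls. The groups did not overlap, but knockout 1 lay next to the highest control. The log2 fold change was 0.53 ± 0.14 (SE), or 1.45-fold, with an adjusted p of 0.0323 from edgeR.

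Pkd1, which encodes the large receptor-like polycystin-1 that pairs with polycystin-2, did not pass. It had 29.8, 44.1, 45.7 and 51.4 CPM in knockouts, against 37.7, 28.2, 34.2 and 33.8 CPM in controls. Of the knockouts, 3 lay above all controls, and knockout 1 lay within their range (log2 fold change 0.35, 95% interval -0.02 to 0.73, adjusted p = 0.197 by edgeR). Pkhd1, which encodes fibrocystin, had 98.7, 138, 163 and 151 CPM in knockouts, against 99.3, 69.0, 103 and 103 CPM in controls. The pattern was the same, with knockout 1 inside the control range (log2 fold change 0.56 ± 0.18, adjusted p = 0.0690 by edgeR). DESeq2 (adjusted p = 0.0238) and voom (adjusted p = 0.0174) called Pkhd1 higher, and voom also called Pkd1 (adjusted p = 0.0419), so that voom called 3 of these 3 genes.

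Without knockout 1 all 3 genes of this group passed edgeR's threshold, at log2 fold changes of 0.49 for Pkd1 (adjusted p = 0.0398), 0.63 for Pkd2 (adjusted p = 0.0130) and 0.69 for Pkhd1 (adjusted p = 0.0256). The call of Pkd2 ended without any 1 of the other libraries except control 1, at adjusted p-values of 0.0553 to 0.0951. Pkd1 and Pkhd1 are among the longest genes of the list, with 14170 and 12928 bases. The change of log2 CPM per doubling of gene length, over all genes, was -0.12, -0.03, 0.11 and 0.10 in knockouts and 0.10, -0.12, 0.03 and -0.07 in controls. Knockout 1 and control 2 thus had the least reads from long genes, and the groups overlapped (exact permutation test, two-sided, p = 0.686, n = 4 against 4). With each library's trends over length and GC content removed, the log2 fold changes were 0.14 for Pkd1 (adjusted p = 0.428 by edgeR), 0.49 for Pkd2 (adjusted p = 0.00865) and 0.43 for Pkhd1 (adjusted p = 0.0400), so the value of Pkd1 moved by more than that of Pkd2.

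**Figure D3:**
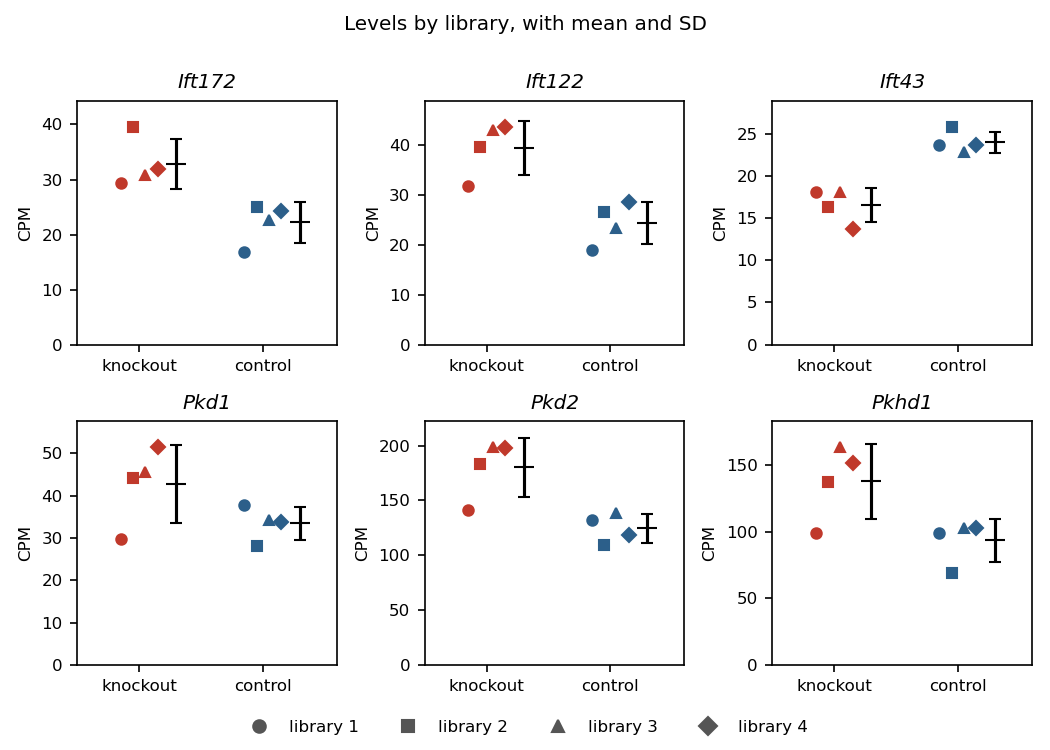
Each panel shows CPM of a cilium gene in the 4 knockouts (left) and the 4 controls (right), with 1 point per library, marker shapes for library numbers, and bars for the mean and SD. Ift172, Ift122 and Pkd2 have no knockout below a control and Ift43 has no knockout above a control, whereas in Pkd1 and Pkhd1 knockout 1 lies within the control range.

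For 10 of the 43 members exactly 3 of the 4 knockouts lay above all controls, against 9.23% of all genes. The fourth was knockout 1 in each of these except Ift80, or 9 members, against 4.31% of all genes with that order. This order was picked from these same values, and the 9 members share the single library knockout 1, so the count is a description with no test. For 5 more members all 4 knockouts lay above all controls, against 11.1% of all genes. All 4 knockouts lay below the controls for 2 members, Ift88 and Ift43. In either direction the groups did not overlap for 7 members (16.3%), against 21.7% of all genes. Among members with windows that hold the X-box, edgeR called 0 of the 6 with the strict form and 0 of the 13 with either form, with median log2 fold changes of 0.08 and 0.21. Of the 27 members with a window and no such match, 2 rose and 1 fell, with a median of -0.02. The difference between these sets was not tested.

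Per length, the members were expressed below the typical gene. Mean TPM of members over all 8 libraries had a median of 5.73, against 12.3 for all genes tested, and ran from 0.537 (Cep290) to 89.2 (Ift20). Ift20 led with 94.9 ± 5.47 TPM in knockouts and 83.5 ± 10.99 TPM in controls (SD, n = 4 each). Ift22 came next among controls, and after Pkd2 among knockouts, at 62.8 ± 5.14 TPM in knockouts and 60.4 ± 5.51 TPM in controls, and by their spread Ift20 and Ift22 differed in both groups.

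Ift43 followed Ift22 among controls, with 39.6 ± 4.35 TPM in knockouts and 56.2 ± 4.66 TPM in controls, a level that overlapped Ift22 within the controls' spread. Pkd2 had 68.1 ± 16.2 TPM in knockouts and 45.7 ± 9.04 TPM in controls, so that Pkd2 ranked above Ift43 in knockouts and below it in controls, there within the spread. Subunits of the same complex thus differed widely in level: within IFT-A, Ift122 had 19.2 ± 4.38 TPM in knockouts and 11.3 ± 0.950 TPM in controls, and Wdr19 had 2.96 ± 0.906 TPM in knockouts and 2.51 ± 0.712 TPM in controls. Dync2h1, with 1.46 ± 0.415 TPM in knockouts and 1.25 ± 0.284 TPM in controls, Nphp4 and Cep290 were at the low end.

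**Figure D4:**
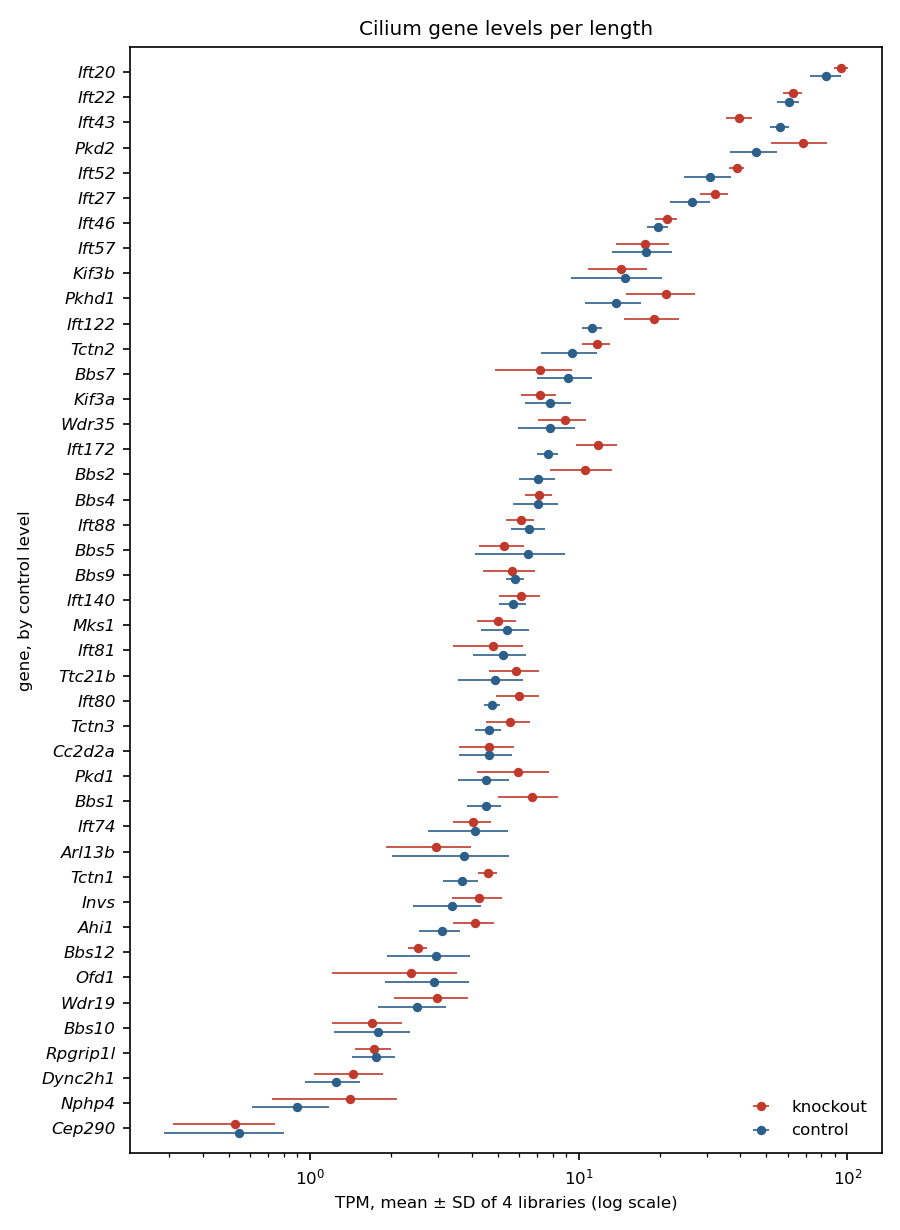
The x axis, on a log scale, gives TPM as mean ± SD of 4 libraries for knockouts and controls, and the genes are ordered down the page by control level. Ift20 and Ift22 stand at the top and Cep290 at the bottom, and for most genes the error bars of the groups overlap.

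The rest of the cilium was measured with 73 further genes in 4 lists (other IFT, BBS and motor genes, transition zone and inversin genes, centriole genes, and membrane cargo), of which 72 were in the table and 70 were tested. Here 1 rose, 1 fell and 68 did not pass, or 2.86% called against the 12.7% of all genes, with a median log2 fold change of -0.02. Unadjusted p-values under 0.05 numbered 6 higher and 4 lower, DESeq2 called 1 higher and 2 lower, and voom 2 higher and 1 lower. The 95% interval lay within a 2-fold change for 62 of the 70 (88.6%).

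The gene that rose was Arl3, a small GTPase that releases lipidated proteins inside the cilium, with 80.8, 68.6, 55.5 and 61.7 CPM in knockouts, against 42.5, 39.5, 45.5 and 43.3 CPM in controls. All knockouts were above all controls, with knockout 1 highest (log2 fold change 0.64 ± 0.13, adjusted p = 0.0116 by edgeR). The gene that fell was Tmem237, a transition zone membrane protein, with 17.5 ± 1.93 CPM in knockouts and 25.8 ± 1.11 CPM in controls (SD, n = 4 each; log2 fold change -0.56, adjusted p = 0.0159). Its call ended without knockout 4 (adjusted p = 0.0551), whereas that of Arl3 held with each single library left out. Among 18 further IFT, BBS and motor genes edgeR called 0, with 0 higher and 1 lower (Lztfl1, a BBSome regulator, -0.45) at an unadjusted p under 0.05 and 0 by DESeq2 or voom. Among 25 centriole genes edgeR called 0 too, with 3 higher and 1 lower unadjusted and 0 by DESeq2 or voom, and the smallest p-values were those of Ehd3 and Wdpcp (log2 fold changes of 0.69 and 0.48).

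Genes that act upstream or downstream of the cilium gave a mixed picture. Of 11 ciliary transcription factors 6 were tested, and Foxj1, the regulator of motile cilia, fell: it had 1.66, 1.91, 1.52 and 2.16 CPM in knockouts, against 4.81, 3.00, 4.16 and 7.06 CPM in controls. The groups did not overlap, with control 4 highest (log2 fold change -1.39 ± 0.30, or 2.62-fold lower, adjusted p = 0.0151 by edgeR). The call held with each single library left out, but ended without control 1 and knockout 3 together (adjusted p = 0.0646 by edgeR). Of 16 structural genes of motile cilia 6 had enough counts, and edgeR called 0, with 2 higher (Dnah11 and Tekt2, log2 fold changes of 1.53 and 0.83) at an unadjusted p under 0.05, while DESeq2 and voom called 1 higher each. The summed level of all 16, tested or not, was 19.4 to 27.6 CPM in knockouts and 15.5 to 22.4 CPM in controls.

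In the Hedgehog pathway, which signals through the primary cilium, 3 of 17 tested genes rose and 0 fell, with a median log2 fold change of 0.30. Of all genes 6.45% were called higher and 6.28% lower. CPM values of the groups did not overlap for 4 of the 17 (23.5%), against 21.7% of all genes. Gas1, a co-receptor, had 35.0 ± 1.01 CPM in knockouts and 23.4 ± 3.70 CPM in controls (SD, n = 4 each; log2 fold change 0.58, adjusted p = 0.0177 by edgeR). Boc, another co-receptor, had 9.73 ± 1.89 CPM in knockouts and 5.65 ± 0.583 CPM in controls (0.78, adjusted p = 0.0254), and Evc, a protein of the cilium base, 141 ± 18.4 CPM in knockouts and 98.4 ± 4.85 CPM in controls (0.52, adjusted p = 0.0200). These 3 calls ended without control 3 or knockout 4, those of Gas1 and Boc also without knockout 2, those of Evc and Boc also without knockout 3, and that of Boc also without control 4, at adjusted p-values of 0.0517 to 0.0844. Stromal markers, for cells that also respond to Hedgehog ligands, summed to 459 to 715 CPM in knockouts and 222 to 578 CPM in controls, and their part in these differences was not tested. Of 12 genes for cilium disassembly edgeR called 0, with 2 higher (Ndel1 and Tchp, at 0.29 and 0.38) at an unadjusted p under 0.05, 1 higher by DESeq2 and 0 by voom.

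Of 15 cystic kidney genes outside the cilium core, Umod, the uromodulin gene of the loop of Henle, rose (log2 fold change 1.08, adjusted p = 0.00681 by edgeR) and Alg9, a glycosylation enzyme, fell (-0.49, adjusted p = 0.0166). The call of Alg9 ended without control 3, knockout 3 or knockout 4 (adjusted p-values of 0.0534 to 0.0615).

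The small changes of cilium genes stood in libraries where markers of tubule cells, chosen without regard to cilia, differed far more. Of 14 injured-tubule markers 11 fell, with a median log2 fold change of -1.66 and summed levels of 6827 to 7416 CPM in knockouts and 16636 to 31312 CPM in controls. Of 8 loop of Henle markers 5 rose (median 1.16), with 6676 to 7787 CPM in knockouts and 2309 to 3976 CPM in controls. Of 12 distal nephron and collecting duct markers 9 rose (median 1.23). Of 12 proximal tubule markers 3 rose (median 0.63), with 8851 to 11378 CPM in knockouts and 4419 to 10443 CPM in controls, so the kidney identity of the tissue was plain in all 8 libraries.

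Pkd2 and Pkhd1 are known for strong expression in distal segments, and the part of these marker differences in their values was not tested. Immediate early and heat shock genes, which respond to tissue handling as well as to injury, summed to 2353 to 2821 CPM in knockouts and 3526 to 4078 CPM in controls, with 7 of 14 lower. Macrophage markers summed to 292 to 566 CPM in knockouts and 237 to 495 CPM in controls, with 2 of 10 lower (Itgam and Ccr2) and 0 lower without any 1 of the knockouts.

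**Figure D5:**
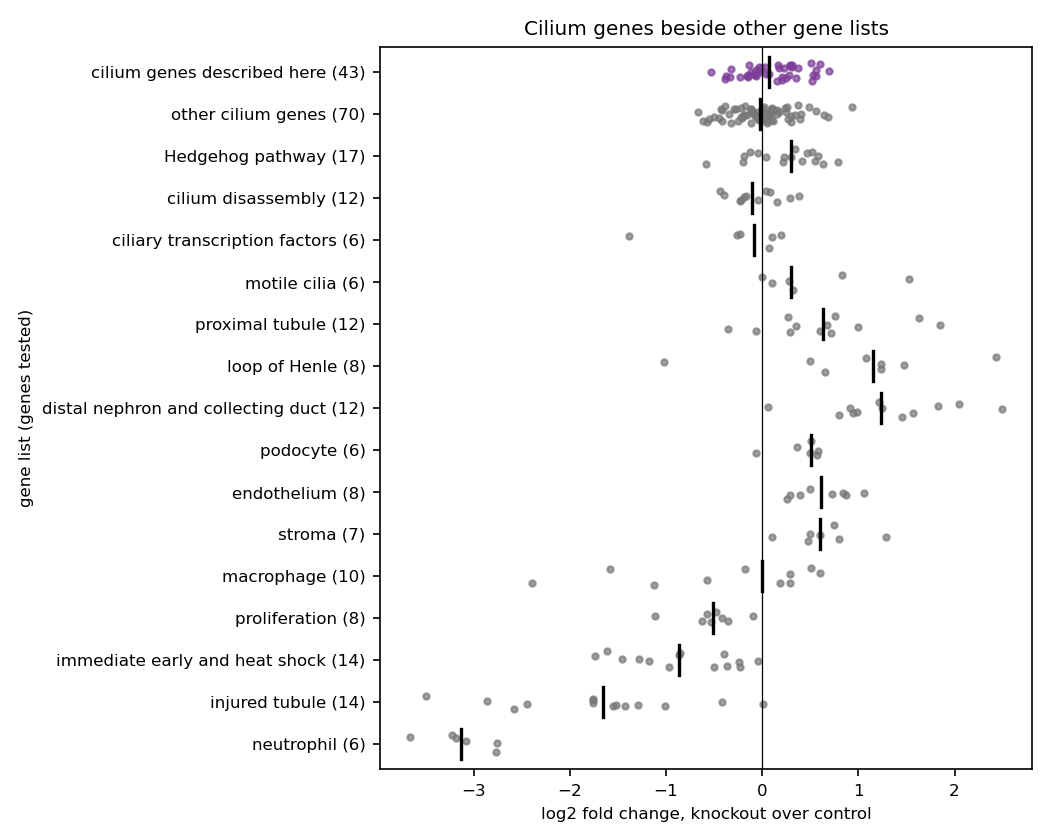
Each row is a gene list with the number of genes tested, each point a gene, and the x axis its log2 fold change of knockout over control. The cilium genes described here and the other cilium genes are each drawn as a single row, and the medians of these rows lie close to 0. Markers of the loop of Henle and distal nephron lie mostly to the right and injured-tubule markers to the left.

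The libraries were made with an unstranded kit, so reads of overlapping genes on opposite strands cannot be told apart. In an annotation of an earlier build, exons of Tctn1 overlapped the opposite-strand gene Hvcn1 over 1574 bases (19% of its exonic bases). Exons of Pkd1 overlapped Tsc2 over 693 bases (3.98%), and Cep290 overlapped an antisense transcript over 7.58% of its exonic bases. Exons of Ift57 overlapped an opposite-strand gene over 225 bases (7.86%). Overlaps of a smaller share than that of Pkd1 were found for Bbs4, Bbs12, Ift88, Invs, Ofd1 and Pkhd1. Values of these genes are uncertain to that extent. No such overlap was found for Ift172, Ift122, Ift43 or Pkd2.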

How the data were processed

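The authors deposited 1 table of whole-number counts per gene and library, with a gene length in bases, from 8 kidney libraries. Per the submitters' processing notes, the build was mm39 and the tools were HISAT2 2.2.1, Salmon 1.10.2, Trim Galore 0.6.2 and FastQC. The step that gave the counts and its annotation are not stated in the sources used here. Among counts of 1 to 20, 68.7% to 70.9% per library were even, against 49.5% to 50.4% over 100, as when both mates are counted. So a count may stand for less than 1 fragment, and depth covers counting error only. Genes were taken by symbol, because 13 of 18423 identifiers (0.0706%) belonged to the symbol in their line. Of 25239 symbols, 5807 had a total of 0.

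Computed here: edgeR 4.0.16 (R 4.3.3) with filterByExpr (minimum count 10), TMM and a quasi-likelihood fit of knockout over control, 4 against 4 libraries with no covariate. Adjustment (Benjamini-Hochberg) was over 15000 genes, with a threshold of 0.05. CPM used TMM factors, log2 CPM a prior count of 2, and TPM the deposited lengths. Alternatives were DESeq2 1.42.0, limma 3.58.1 voom, other scalings and filters, a length and GC correction, a replicate block and left-out libraries. The procedure was tested on simulated data. The members and lists were chosen with earlier results of these data known, and no list was tested as a set. Named with full statistics were Pkd1, Pkd2, Pkhd1, Ift88, Cep290 and Dync2h1, every called member, and of each role group the member with the smallest p and the one nearest to 0. From each other list came up to 4 called genes, or up to 2 by smallest p. Other named genes were chosen after their values were seen.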

Additional observations from a re-analysis of the deposited data

Results flagged for a closer look

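For each of 86 groups (43 members in knockouts and in controls) the 4 libraries were searched for 1 that stood far from the rest, by Dixon's ratio of gap to range past its 95% critical value. Chance alone gives about 1 in 20 such groups, and 6 were found. Ift81 had 4.84 CPM in knockout 2, against 8.56 to 9.31 CPM in the other knockouts. Knockout 1 stood low for 3 members: Wdr19 at 5.76 CPM (9.73 to 10.04 in the other knockouts), Cc2d2a at 10.3 CPM (13.8 to 14.5) and Invs at 10.5 CPM (13.5 to 13.96). Mks1 had 8.73 CPM in control 3, against 6.51 to 6.66 CPM in the other controls. Pkhd1 had 69.0 CPM in control 2, against 99.3 to 103 CPM in the other controls.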

How the results depend on the processing

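Over 17 alternatives no value of a called gene changed direction, and the median log2 fold change of the members stayed between 0.07 and 0.15. Members called higher numbered 3, and 7 with voom, 1 with a replicate block, 0 without control 1 and knockout 3 together, and 0 to 5 with single libraries left out (0 without control 3, knockout 3 or knockout 4, 1 without control 4 or knockout 2, 5 without knockout 1). Members called lower numbered 1, and 0 with the replicate block, 0 without control 1 and knockout 3 together, and 0 to 1 with single libraries left out. For the other cilium genes the count higher was 1, and 2 with voom, 0 with the block and 3 after length and GC correction. Their count lower was 1, and 2 with DESeq2, 0 with the block, 2 after length and GC correction, 0 without control 1 and knockout 3, and 0 to 1 with single libraries left out. Over all genes, 967 were higher, against 1605 (DESeq2), 447 (block), 549 (without control 1 and knockout 3) and 457 to 1001 (single libraries). The 942 lower genes became 1504 (DESeq2), 1447 (voom), 418 (block), 1432 (length and GC, with 1259 higher), 496 (without control 1 and knockout 3) and 450 to 983 (single libraries). The looser X-box, which includes the strict one, was found in 32.5% of members, against 15%. Libraries with the same number in their titles did not deviate together (correlations -0.20, 0.04, 0.15 and -0.16), so title numbers were not taken as pairs. The column names number knockout 1 and knockout 2 as T2 and T3, and control 2 and control 3 as C2 and C3. By those numbers the correlations were 0.35 (knockout 1 with control 2, the highest of any knockout with any control) and 0.17 (knockout 2 with control 3). Pairing by column name was not tested, and the replicate block used title numbers. The cause of the other differences was not tested. With length and GC correction Ift172 lost its call and Pkhd1 gained one. Precision was lowest for Cep290 and Nphp4, which had the highest SE of the members (0.37 and 0.32).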

Other observations

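Across the 43 members, rank correlations of the log2 fold change were 0.35 with gene length and 0.50 with GC content, against 0.04 and 0.11 over the 15000 genes tested. The points share the same 8 libraries, so these are descriptions. The 22 longer members had a median log2 fold change of 0.26 and the shorter ones of -0.04. The median member length was 4067 bases, against 2996 bases for genes tested.

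The cilium genes together took 0.0855%, 0.100%, 0.107% and 0.111% of the counts in knockouts and 0.0933%, 0.0739%, 0.0880% and 0.0781% in controls, with control 1 above knockout 1. These are shares of raw counts, and with TMM scaling the groups did not overlap.

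Podocyte markers, which are those of a cell type of the glomerulus, rose for 4 of 6 genes with a median log2 fold change of 0.51, and endothelial markers for 3 of 8 with a median of 0.61. With single libraries left out these counts were 1 to 4 for podocyte markers (1 without control 3, control 4, knockout 2 or knockout 4) and 0 to 3 for endothelial ones (0 without knockout 3 or knockout 4). All 6 neutrophil markers fell, with summed levels of 5.81 to 15.7 CPM in knockouts and 27.3 to 171 CPM in controls, and with single libraries left out 1 to 6 passed (1 without knockout 2). Of 8 proliferation markers, for cells that disassemble their cilium, 2 (Mcm2 and Pcna) fell and 6 did not pass. The call of Pcna (adjusted p = 0.0484) ended without any single library, and that of Mcm2 without control 4, knockout 2, knockout 3 or knockout 4. The parts of these cell types in the values of cilium genes were not tested.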
